A study of Mus musculus with 5 samples.

Results

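Monocyte progenitors of mouse bone marrow were defined here as Lin-kit+ cells that held transcripts of Irf8 and of a small set of monocyte genes but few transcripts of late neutrophils or dendritic cells. A cell was counted as a member if it had at least 1 UMI of Irf8 and a summed count of Csf1r, Ccr2, F13a1 and Ms4a6c of at least 2. Members also had under 1% of their UMIs in S100a8 and S100a9, 4 or fewer UMIs of Ltf, and fewer than 2 of the 5 genes H2-Aa, H2-Ab1, H2-Eb1, Siglech and Cd209a detected. A UMI is a molecular tag, so that each count is 1 captured transcript. The rule took 3423 of 11581 Lin-kit+ cells, out of 12893 cells in the whole data set. The rule was set on measured values, so levels of its 13 genes are given as a description with no test.

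All cells came from untreated mice of the strain Fgd5CreERT2/+Rosa26Tomato/+ at an age of 20 weeks, with CD45.2 on the cell surface. In this knock-in strain the reporter ZsGreen and an inducible Cre are made from the Fgd5 locus, and the Tomato allele at Rosa26 needs Cre to be switched on. The 3 Lin-kit+ libraries, called a, b and c, held cells negative for lineage markers and positive for c-kit, and another pair of libraries held cells that were also positive for the Fgd5 reporter (Fgd5+) or that had a stem cell phenotype in addition (HSC-Fgd5+). Cells carry 1 of 5 barcode suffixes that name no population, and the match of suffixes to populations rests on cell numbers. The number of mice is not given in the sources used here. Replicates are therefore libraries, which could be separate loadings of 1 cell suspension, and each p-value measures the spread between these libraries only.

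Monocytes arise in the marrow from granulocyte-monocyte progenitors and from progenitors shared with dendritic cells, and the level of the transcription factor IRF8 is known to steer such cells towards the monocyte and dendritic fates and away from neutrophils. KLF4 acts with IRF8 in monocyte differentiation, whereas GFI1 and C/EBPε belong to the neutrophil program. The receptor for macrophage colony-stimulating factor, encoded by Csf1r, and the chemokine receptor CCR2, which lets monocytes leave the marrow, are classical markers of the lineage.

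The sequence before the transcription start is shown for 5 genes, Irf8, F13a1 and Ms4a6c because they are genes of the rule, and Ly86 and Trem2 because they lie outside it and were higher in members than in other Lin-kit+ and neutrophil-primed cells. Each line gives the 250 bases before the RefSeq start in GRCm38.p6, 5′ to 3′ on the strand of the gene. The windows are chr8:120736108-120736357 on the plus strand for Irf8, chr13:37345095-37345344 on the plus strand for Ly86 (a partner of a Toll-like receptor homologue), chr13:37050245-37050494 on the minus strand for F13a1 (a subunit of coagulation factor XIII), chr19:11469118-11469367 on the plus strand for Ms4a6c (a membrane protein of the MS4A family) and chr17:48346151-48346400 on the plus strand for Trem2 (a lipid-sensing receptor of myeloid cells). Capitals mark AGGAAG or its reverse complement, a longer form of the GGAA core that factors of the ETS family such as PU.1 recognise.
Irf8: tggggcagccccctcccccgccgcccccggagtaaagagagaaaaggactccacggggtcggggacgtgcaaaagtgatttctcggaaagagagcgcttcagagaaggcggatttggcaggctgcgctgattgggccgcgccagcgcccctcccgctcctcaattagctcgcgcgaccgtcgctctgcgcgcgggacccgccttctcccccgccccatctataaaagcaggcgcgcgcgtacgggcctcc
Ly86: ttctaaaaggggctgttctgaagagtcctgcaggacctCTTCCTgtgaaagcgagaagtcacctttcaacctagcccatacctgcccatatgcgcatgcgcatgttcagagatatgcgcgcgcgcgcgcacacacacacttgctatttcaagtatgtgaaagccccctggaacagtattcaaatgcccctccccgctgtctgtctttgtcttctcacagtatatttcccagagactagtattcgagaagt
F13a1: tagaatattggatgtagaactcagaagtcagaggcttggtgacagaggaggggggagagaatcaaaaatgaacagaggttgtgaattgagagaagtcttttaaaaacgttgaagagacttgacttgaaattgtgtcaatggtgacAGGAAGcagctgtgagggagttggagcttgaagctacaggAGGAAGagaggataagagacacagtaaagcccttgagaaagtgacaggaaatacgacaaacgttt
Ms4a6c: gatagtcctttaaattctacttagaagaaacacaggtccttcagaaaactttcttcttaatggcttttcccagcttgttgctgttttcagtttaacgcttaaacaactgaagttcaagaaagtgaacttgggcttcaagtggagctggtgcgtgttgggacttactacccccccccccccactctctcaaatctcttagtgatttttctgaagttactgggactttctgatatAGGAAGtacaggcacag
Trem2: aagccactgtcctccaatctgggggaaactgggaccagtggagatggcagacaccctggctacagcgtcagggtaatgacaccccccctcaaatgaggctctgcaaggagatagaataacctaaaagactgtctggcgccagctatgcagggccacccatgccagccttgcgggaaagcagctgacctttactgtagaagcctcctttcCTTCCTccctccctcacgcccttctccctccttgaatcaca
AGGAAG was present in the windows of Ly86, F13a1, Ms4a6c and Trem2 and not in that of Irf8. The windows of Ccr2 (chr9:124101933-124102182, plus strand) and Klf4 (chr4:55532476-55532725, minus strand) were also searched and did not hold AGGAAG, so that 4 of 7 windows did. The shorter GGAA is found in the windows of Irf8, Ccr2 and Klf4, so a window without AGGAAG does not lack the core. AGGAAG was also present, on either strand, in 29.2% of all 27025 RefSeq windows of this length. Of the promoters matched by symbol, it was held by 34.0% of the 376 genes at least 2-fold higher in members than in neutrophil-primed cells, by 37.1% of the 283 genes at least 2-fold lower and by 28.7% of the 7000 genes tested. Longer motifs were searched first on both strands, namely GAGGAAGT for PU.1, the ETS-IRF composite element, the IRF response element, TTGCNNAA for C/EBP and GGGNGTGG for KLF, and none of them was present in these 7 windows. They were held by 2.42%, 2.38%, 3.05%, 9.55% and 15.9% of all windows, in this order. Against neutrophil-primed cells the shares were 5.32%, 2.93%, 5.85%, 7.98% and 24.5% of higher genes. Lower genes had 1.41%, 1.41%, 3.18%, 9.89% and 23.7%, and genes tested 2.61%, 1.97%, 2.67%, 7.29% and 21.4%. Against other Lin-kit+ cells GAGGAAGT was in 3.82% of higher and 3.57% of lower genes, and the IRF element in 4.51% and 4.89%. Differences in these shares were not tested. AGGAAG was chosen after these letters had given no match, and it overlaps GAGGAAGT.

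Members made up 32.6% of the cells of library a (436 of 1339, 95% Wilson interval 30.1% to 35.1%). In library b the share was 28.1% (1152 of 4095, 26.8% to 29.5%) and in library c 29.9% (1835 of 6147, 28.7% to 31.0%). The mean was 30.2% ± 2.23 (SD, n = 3 libraries). These intervals cover counting error only. The same rule found 4 of 793 Fgd5+ cells (0.504%) and 0 of 519 HSC-Fgd5+ cells, which allows a share of up to 0.578%. Members were deeper than the rest of their library, with medians of 8496, 5664 and 6898 UMIs per cell in libraries a, b and c against 5697, 3928 and 4876 in the other Lin-kit+ cells. When each cell was thinned to 2000 UMIs before the rule was applied, the mean share was 18.3% ± 0.585 (n = 3), lower than at full depth in every library.

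**Figure D1:**
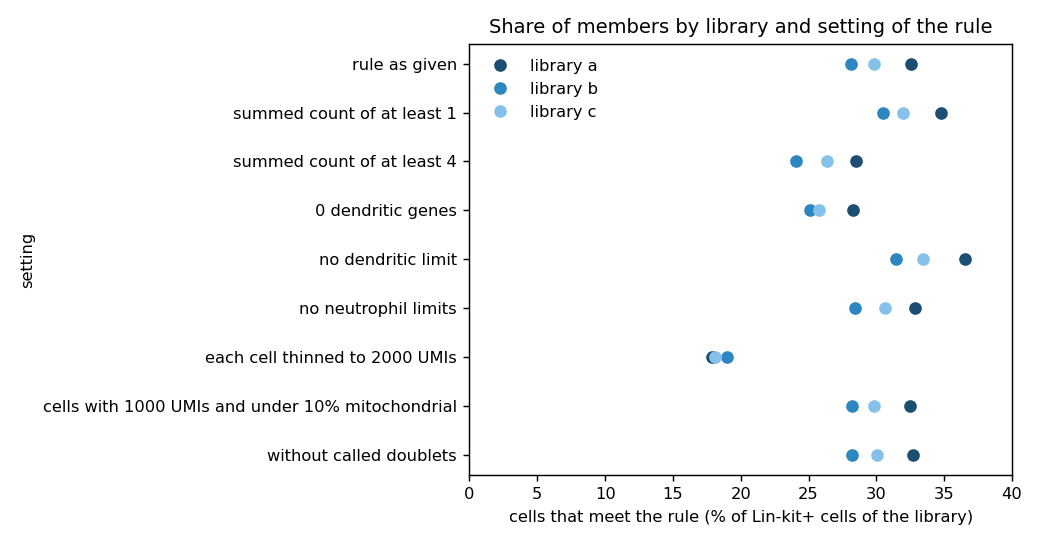
Share of Lin-kit+ cells that met the rule (x axis, % of the cells of a library) under each setting of the rule (y axis), 1 point per library. The points lie between 28.1% and 32.6% with the rule as given and near their mean of 18.3% after thinning to 2000 UMIs.

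Of the steps of the rule, Irf8 alone kept 4699 Lin-kit+ cells and the summed count kept 3900 of these. The limits on S100a8, S100a9 and Ltf then removed 69 cells, and the limit on dendritic genes removed 408. Cells just inside the summed count, at 2 UMIs, numbered 198 and had 57.0 CPM of Ly86 and 4.53 CPM of Klf4, where CPM is UMIs of a gene per 1000000 UMIs of the summed cells. Cells just outside, at 1 UMI with all other limits met, numbered 252 and had 36.3 CPM of Ly86 and 3.56 CPM of Klf4. The 55 cells just outside the dendritic limit, with 2 genes detected, had 134 CPM of Ly86, 952 CPM of Cd74 and 1853 CPM of Mpo.

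The whole series holds libraries of 2166655 to 36080242 UMIs, and the Lin-kit+ libraries hold 10000606 to 36080242. Of 12893 cells, 125 carried 1 of 62 barcodes found in more than 1 library, and 24 of these cells were members. Scrublet called 165 cells doublets, 20 of them members, and these were kept. Among 8160 genes with at least 100 UMIs in members, 332 (4.07%) differed at least 2-fold between the highest and the lowest library, and 263 of these were highest in library a. Transcripts of granulocytes were also found in red cell progenitors. Of 177 erythroid cells, chosen by Klf1 and Car1, 62.7% held S100a8, 25.4% held Elane and 19.2% held Mpo, at a median of 7223 UMIs per cell.

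Against that background, the marker genes that chose the members were present as follows. Irf8 was found in every member by rule, with a median of 5 UMIs per cell and a maximum of 39. Ms4a6c was detected in 97.8% of members, F13a1 in 85.9%, Ccr2 in 48.7% and Csf1r in 28.1%. The shares in erythroid cells were 2.26%, 1.13%, 0.565% and 0%, and 0 of 177 allows up to 1.69%. All 4 of these genes were detected in 476 members (13.9%), 3 in 1413 (41.3%), 2 in 1238 (36.2%) and a single one in 296 (8.65%). Irf8 reached 844, 847 and 827 CPM in the members of libraries a, b and c against 164, 171 and 156 CPM in other Lin-kit+ cells, values that the rule itself set.

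Ly86, the marker that the rule did not use, was measured at 105, 113 and 90.6 CPM in the members of libraries a, b and c. In the other Lin-kit+ cells it was at 10.5, 12.5 and 12.1 CPM. The groups did not overlap, and Ly86 was higher in members by 2.96 ± 0.067 on the log2 scale (SE; adjusted p = 1.44e-28). A Ly86 UMI was found in 46.0% of members and in 0 of 177 erythroid cells. When the rule was applied to one random part of each cell's UMIs and the values were taken from the other part, the difference was 2.39 ± 0.087. Ly86 was at 129, 138 and 134 CPM in dendritic-type cells, described further on, so a high level of this gene does not set members apart from them, and some clusters of members, given last, went against the label.

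Members were compared with all other Lin-kit+ cells within each library, on UMIs summed per library and class. Outside the rule 10737 genes were tested, and 5882 of them (54.8%) had an adjusted p under 0.05. In members 3058 genes (28.5%) were higher and 2824 (26.3%) were lower, of which 378 (3.52%) and 1015 (9.45%) differed at least 2-fold. With scaling to library totals in place of TMM, which moved the median of all genes from 0.02 to 0.12 on the log2 scale, 64.2% of the calls were higher in place of 52.0%. So many genes differed that a share near 54.8% of a list is no result about that list. The share of all genes without overlap between classes is not given here, so a lack of overlap only describes the gene named. The other Lin-kit+ cells hold neutrophil, erythroid, basophil and stem cell types, and each value is a mean over that mixture. All cells over the rule's limits on S100a8, S100a9 and Ltf are among them. Lower levels of late neutrophil genes in members therefore follow in part from the rule. In sums of cells, fewer cells of a type and less RNA per cell cannot be told apart.

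Among the transcription factors, Klf4 stood at 33.0, 33.7 and 35.2 CPM in members of libraries a, b and c and at 4.40, 4.56 and 4.88 CPM in the other cells. The groups were apart in each library, with a difference of 2.77 ± 0.099 (adjusted p = 1.23e-22). Zeb2, a repressor used in myeloid and dendritic differentiation, was at 151, 155 and 170 CPM against 59.5, 56.1 and 60.7 CPM, again with no overlap (1.35 ± 0.043, adjusted p = 2.41e-24). Irf5, a factor of Toll-like receptor signalling, was higher by 1.32 ± 0.087. Gfi1, the neutrophil repressor, was at 1.95, 2.42 and 2.36 CPM against 11.01, 10.2 and 10.7 CPM and was lower in every library (-2.296 ± 0.171, adjusted p = 1.01e-13). Id2, an inhibitor of DNA binding used in dendritic and lymphoid cells, was lower (-3.49 ± 0.077). Of the 23 genes tested in the list of monocyte transcription factors, 11 were higher and 11 lower, with a median of -0.04 beside 0.02 for all genes.

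Spi1, which encodes PU.1, differed more between libraries than between classes. It was at 139, 50.1 and 30.1 CPM in members of libraries a, b and c and at 120, 37.9 and 20.1 CPM in the other cells. The groups overlapped across libraries, while within each library members were higher (0.27 ± 0.063, adjusted p = 0.00042). Without the library block the difference was 0.20 ± 0.72 and did not pass (adjusted p = 0.872). Cebpa, the factor needed for granulocyte-monocyte progenitors, was at 16.1, 16.9 and 11.3 CPM against 11.7, 10.1 and 8.06 CPM (0.47 ± 0.11, adjusted p = 0.000556), and the groups overlapped. This call was lost after thinning, where the sign turned (-0.06 ± 0.23, adjusted p = 0.87), with DESeq2 (adjusted p = 0.116), without the block (adjusted p = 0.108) and when rule and values came from different UMIs (0.32, adjusted p = 0.122).

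Of the monocyte receptors and surface proteins, 23 of 36 genes tested were higher in members and 8 were lower, with a median of 0.93. Ly6c2, the surface antigen of classical monocytes, was abundant in both classes, at 2959, 3083 and 3002 CPM in members and 1449, 1488 and 1507 CPM in the rest (0.92 ± 0.024, adjusted p = 1.51e-26). Cx3cr1, the fractalkine receptor, was at 28.1, 28.7 and 29.4 CPM against 4.74, 4.81 and 5.32 CPM (2.41 ± 0.10, adjusted p = 1.81e-20). Neither gene overlapped between the classes. The relatives of Ms4a6c moved in the same direction, Ms4a6b by 2.33 ± 0.061 and Ms4a6d by 3.29 ± 0.18, and as genes of 1 family they may share reads with it. Cd14, Adgre1 and Fcgr1, which mark mature monocytes and macrophages, were higher too but sparse. Cd14 was at 10.3, 8.91 and 12.2 CPM in members, Adgre1 at 5.61, 8.61 and 6.77 CPM and Fcgr1 at 1.95, 1.51 and 2.28 CPM. Lower in members were Itgam, the integrin chain of mature phagocytes (-2.54 ± 0.11), and Csf3r, the receptor for granulocyte colony-stimulating factor (-0.57 ± 0.082), which did not pass after thinning (-0.40, adjusted p = 0.0685).

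Trem2 was the gene with the largest rise among those the naming rule covers. It was at 39.3, 37.6 and 38.1 CPM in members and at 0.339, 0.580 and 0.828 CPM in the other cells, far apart in every library (5.68 ± 0.15, adjusted p = 1.27e-26). With rule and values from different UMIs the difference was 3.72 ± 0.16, and after thinning 3.07 ± 0.17. Other genes of this rule were Met, the receptor for hepatocyte growth factor (3.50 ± 0.15), Bmx, a TEC family kinase (3.77 ± 0.24), Fn1, which encodes fibronectin (3.49 ± 0.30), and Itga1, an integrin chain (3.48 ± 0.28). Stxbp6, Tmem178, Tns4, Tctex1d1 and 1700012B09Rik completed the 10. Among the 10 genes lowest in members were genes of maturing neutrophils, such as Retnlg, Stfa1, Chit1 and Itgb2l, whose direction follows in part from the rule's neutrophil limits. Chit1 had 0 UMIs in members against 361 in the rest, and was at least 70.2-fold lower, computed against 3 UMIs over the class.

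Genes of the lysosome and phagosome were higher in members for 17 of 26 tested and lower for 7, with a median of 0.50. Ctss, a cathepsin of antigen-presenting cells, was at 118, 136 and 149 CPM against 36.2, 39.0 and 40.3 CPM (1.73 ± 0.048, adjusted p = 7.09e-26). Lyz2, which encodes lysozyme M and also rises in neutrophils, went the other way at 1250, 1328 and 1411 CPM against 3078, 3247 and 3774 CPM (-1.44 ± 0.026, adjusted p = 2.12e-31). None of the classes overlapped for these genes. Cfp, which encodes properdin of the complement system, was higher by 1.90 ± 0.047. The list of complement and coagulation genes as a whole had 3 higher and 5 lower of 9. Of the 6 genes of the phagocyte NADPH oxidase 5 were lower, with Cybb at 57.1, 58.9 and 56.9 CPM against 124, 122 and 129 CPM (-1.23 ± 0.046).

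Primary granule genes, shared by early neutrophils and monocytes, were split. Mpo (myeloperoxidase) was at 4893, 5025 and 5195 CPM in members against 3590, 3883 and 4209 CPM (0.27 ± 0.025, adjusted p = 3.71e-11), and Prtn3 and Ctsg, which encode serine proteases, were higher by 0.09 ± 0.024 and 0.19 ± 0.024. Both of these calls were lost without the block, and that of Prtn3 also without library b (adjusted p = 0.108). Elane, neutrophil elastase, was at 6158, 5986 and 6360 CPM against 9947, 9793 and 10710 CPM (-0.82 ± 0.024, adjusted p = 4.62e-25). Elane was nevertheless found in 90.1% of members and Mpo in 96.6%, well over the shares in erythroid cells. Ms4a3, a tetraspan protein of granulocyte-monocyte progenitors, was lower (-1.14 ± 0.027). Of the 10 genes of secondary and tertiary granules tested, 9 were lower and Mmp8, a collagenase, was higher (3.22 ± 0.30). The rule limited S100a8, S100a9 and Ltf, 3 further genes of this list, so the lower levels are a description.

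Galectin-1, a sugar-binding protein of myeloid cells encoded by Lgals1, was at 2431, 2308 and 2249 CPM in members and 488, 477 and 468 CPM in the rest (2.18 ± 0.026, adjusted p = 4.94e-37). S100a4, a calcium-binding protein of motile cells, was at 54.2, 49.1 and 48.3 CPM against 11.7, 13.9 and 12.7 CPM (1.84 ± 0.076, adjusted p = 6.59e-21). Neither gene overlapped between the classes. Of the 12 genes tested in the list of S100 proteins, annexins and galectins, 7 were higher and 4 lower. Of 9 chemokine genes 5 were higher, among them Cxcr4, the receptor that holds cells in the marrow (1.45 ± 0.10), and Ccl9 (0.82 ± 0.036), and 3 were lower. Of 16 interferon-stimulated genes 4 were higher, among them Ifitm3 and Bst2, and 10 were lower, among them Irf7 (-1.51 ± 0.20). The lower calls were 5 of 18 with DESeq2, 6 of 14 with rule and values from different UMIs and 2 of 13 after thinning, with 4 higher in each.

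Markers of red cells, basophils, mast cells and eosinophils were low in members. All 12 erythroid, 9 basophil and mast cell and 4 eosinophil genes tested were lower, and the medians of the erythroid and basophil lists were -5.05 and -4.58. The median of the basophil list was -4.18 with a gene at 0 set to its bound. Of 7 lymphoid genes 6 were lower and Cd79b was higher. Of 10 dendritic markers 4 were lower, Bst2 and Runx2 were higher and 4 did not pass, and after thinning 3 of 7 were higher and 3 lower. Kit itself, the antigen of the sort, was at 21.0, 18.0 and 16.6 CPM in members against 33.0, 37.1 and 33.2 CPM (-1.05 ± 0.079, adjusted p = 1.82e-13) and was seen in 10.6% of members. Cd34 was the single stem cell gene of 12 that was higher, at 155, 147 and 151 CPM against 101, 102 and 97.9 CPM (0.50 ± 0.039, adjusted p = 4.92e-13), and this call was lost after thinning (0.08 ± 0.071, adjusted p = 0.398). Of 22 S phase genes 17 were higher and 1 lower, with Mcm5, a subunit of the replicative helicase, at 179, 182 and 187 CPM against 133, 125 and 131 CPM (0.41 ± 0.036). Of 22 genes of G2 and mitosis 8 were higher and 5 lower, but with library totals as scaling these counts were 14 and 2, and after thinning 9 and 0.

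**Figure D2:**
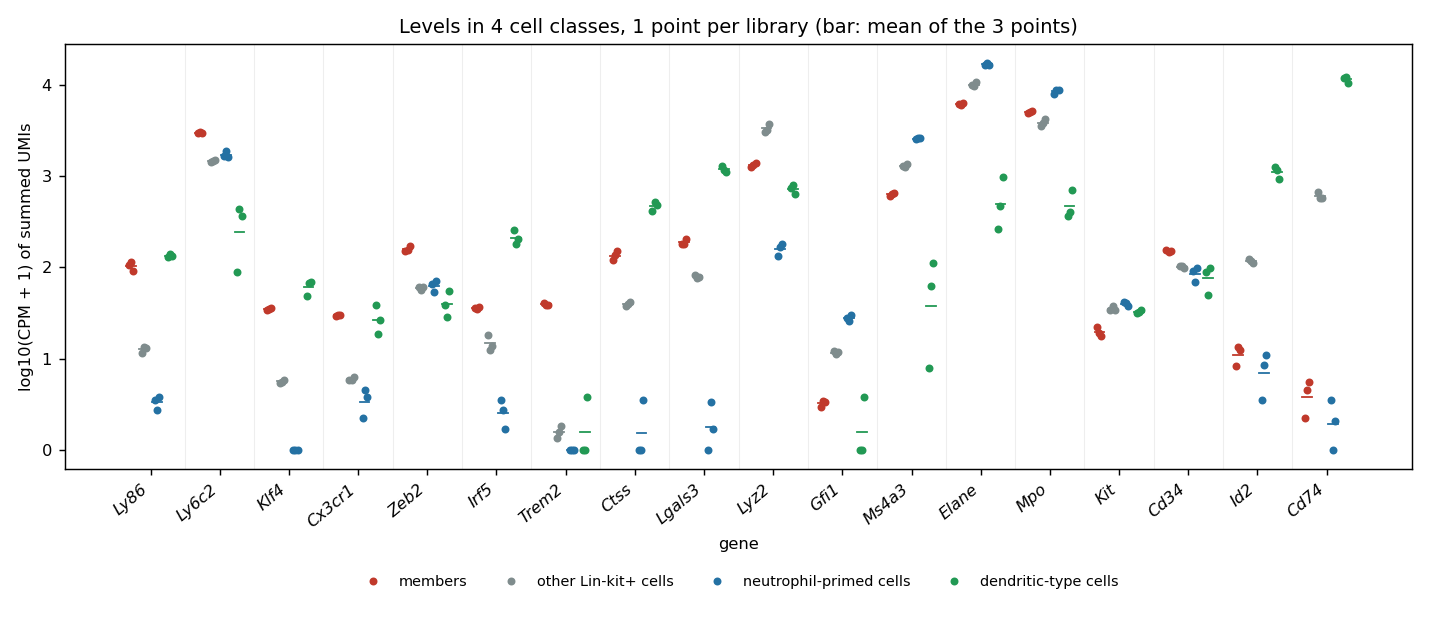
Levels of 18 genes as log10(CPM + 1) of UMIs summed per library (y axis) in 4 classes of Lin-kit+ cells (colours), with 1 point per library and a bar at the mean of the 3 points. Klf4 and Trem2 are at 0 in all 3 neutrophil-primed sums, while Ly86 and Klf4 of members lie just below the dendritic-type cells and Elane and Mpo lie far above them.

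Neutrophil-primed cells were the comparison class on the granulocyte side, with 817 cells (95, 306 and 416 in libraries a, b and c). They had no Irf8 UMI, at least 5 Elane UMIs, a summed count under 2, and the same limits on S100a8, S100a9 and Ltf. Their medians of 7492, 5668 and 6667 UMIs per cell stood beside 8496, 5664 and 6898 in members. Of 9018 genes tested outside both rules, 3000 (33.3%) passed. In members 1590 (17.6%) were higher and 1410 (15.6%) lower, of which 508 (5.63%) and 372 (4.13%) differed at least 2-fold. All comparisons use the same members, so they are not independent of each other. Members were chosen for Irf8 and the summed genes, and neutrophil-primed cells for few or none of these. Differences in genes that go with them therefore follow in part from this choice.

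Klf4 had 0 UMIs in all 3 neutrophil-primed sums and 821 UMIs in members, so that it was at least 61.6-fold higher in members. Trem2 likewise had 0 against 910 UMIs and was at least 68.2-fold higher. With rule and values from different UMIs, Klf4 was higher by 5.31 ± 0.39 and Trem2 by 5.27 ± 0.37 on the log2 scale. After thinning, Klf4 was higher by 3.76 ± 0.33 and Trem2 by 4.15 ± 0.35. Ly86 was at 2.47, 1.75 and 2.82 CPM in the neutrophil-primed cells, without overlap with the members (5.33 ± 0.19, adjusted p = 1.52e-22), and the difference was 2.91 ± 0.19 after thinning. Irf5 was at 2.47, 1.75 and 0.704 CPM against the 34.7, 34.0 and 35.8 CPM of members (4.70 ± 0.29), and Cx3cr1 was higher by 3.35 ± 0.25. Gfi1 was at 27.1, 25.1 and 29.2 CPM there, 12.0-fold the level of members (-3.58 ± 0.22, adjusted p = 1.04e-15). Spi1 overlapped (0.11 ± 0.10, adjusted p = 0.446), and Cebpb, a C/EBP factor of monocytes and granulocytes, did not pass either (0.54 ± 0.30, adjusted p = 0.184).

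The lysosomal list was higher in 17 of 24 genes tested and lower in 1, with a median of 0.92 beside 0.02 for all genes. Ctss was at 0, 0 and 2.46 CPM in neutrophil-primed cells, 107-fold below the members over all libraries (6.70 ± 0.21, adjusted p = 8.44e-24). Lgals3, which encodes galectin-3, was at 0, 2.33 and 0.704 CPM against 179, 181 and 203 CPM in members (7.38 ± 0.19, adjusted p = 1.34e-26). Lyz2 was now higher in members, at 131, 165 and 181 CPM in the neutrophil-primed cells, 8.10-fold below members (adjusted p = 1.47e-34). Cybb was higher as well (2.32 ± 0.15), and of the 6 oxidase genes 3 were higher and none lower. Of 31 surface genes tested 21 were higher, among them Pld4, an exonuclease of the endolysosome (5.73 ± 0.17), and 5 were lower, among them Fcgr3 (-0.81 ± 0.047) and Csf3r (-0.63 ± 0.14), whose call was lost after thinning (adjusted p = 0.138) and with DESeq2 (adjusted p = 0.0587). Among early progenitor genes Flt3 was higher in members, at 13.4, 14.95 and 11.8 CPM against 2.47, 0.583 and 2.11 CPM (2.92 ± 0.35), as were Dntt (2.46 ± 0.30) and Cd34 (0.78 ± 0.076), while Kit was lower (-1.13 ± 0.13). The Dntt of members was concentrated in cluster 2, given last, where 13.7% of cells held it.

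All 8 primary granule genes tested were lower in members than in neutrophil-primed cells, with a median of -1.35. Those cells were chosen by Elane, a gene of the same list, so the direction follows in part from that choice and the levels are a description. Prtn3 was at 7006, 6808 and 6576 CPM and Mpo at 8084, 8764 and 8856 CPM in those cells, 1.59-fold and 1.71-fold the levels of members. Ms4a3 was at 2568, 2610 and 2604 CPM against 602, 635 and 661 CPM (-2.05 ± 0.026). Genes of dividing cells went the other way, with 21 of 22 G2 and mitosis genes higher in members and none lower (median 0.62), and 14 of 22 S phase genes higher and 1 lower. Mki67 was at 114, 102 and 110 CPM in members against 60.5, 51.3 and 50.3 CPM (1.02 ± 0.086, adjusted p = 5.66e-12). DESeq2 called 15 of the 22 mitosis genes.

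The neutrophil-primed class also held other granulocytes. Prg2, the eosinophil major basic protein, was at 447, 480 and 629 CPM there and at 0.977, 1.21 and 5.10 CPM in members, and Cpa3, a mast cell protease, was at 222, 115 and 179 CPM against 6.84, 5.89 and 8.68 CPM. Cells with 10 or more summed UMIs of Mcpt8, Prss34, Cpa3, Prg2, Prg3 and Epx made up 65 of the 817 cells (7.96%) and held 93.3% of these UMIs. Such cells were 21 of 3423 among members. Without them 3117 genes passed in place of 3000, and 2831 of the 3000 did so in the same direction.

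Dendritic-type cells, the comparison class on the dendritic side, numbered 496 (59, 176 and 261). They had Irf8 and the same neutrophil limits but 2 or more of the 5 dendritic genes, and they were shallower, at medians of 4707, 2455 and 3440 UMIs per cell. Of 8630 genes tested, 3116 (36.1%) passed. In members 1526 (17.7%) were higher and 1590 (18.4%) lower, of which 529 (6.13%) and 844 (9.78%) differed at least 2-fold. Irf8, which both rules used, was at 2431, 2642 and 2234 CPM in dendritic-type cells, above the 827 to 847 CPM of members. Ccr2 was at 489, 439 and 404 CPM, also above members, whereas F13a1 at 17.0, 52.5 and 59.3 CPM and Csf1r at 3.395, 7.78 and 7.53 CPM were below them.

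Genes of antigen presentation and dendritic identity were low in members. Cd74, the class II invariant chain, was at 1.22, 3.47 and 4.49 CPM in members and at 11990, 12150 and 10680 CPM in dendritic-type cells. Class II genes chose the dendritic-type cells, so the levels of Cd74 are a description. Batf3, a factor of cross-presenting dendritic cells, was lower (-7.33 ± 0.23), as was Id2 (-6.58 ± 0.11), and all 11 dendritic markers tested outside the rule were lower (median -4.15). This count includes Cd74 and Ciita, the class II transactivator, which are tied to the class II genes that chose those cells. Tcf4, the factor of plasmacytoid dendritic cells, was lower (-1.02 ± 0.17). Irf7, a factor of interferon production, was at 4.64, 1.96 and 2.74 CPM against 40.7, 68.0 and 62.1 CPM (-4.32 ± 0.27), and 9 of 13 interferon-stimulated genes were lower with 2 higher.

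Several genes seen as monocyte genes in the first comparison were not higher than in dendritic-type cells. Klf4 was at 47.5, 66.1 and 67.8 CPM in dendritic-type cells and lower in members in every library (-0.84 ± 0.17, adjusted p = 6.19e-05). Ly86 was at 129, 138 and 134 CPM and lower in members (-0.37 ± 0.12, adjusted p = 0.00911), a call lost with DESeq2 (adjusted p = 0.273), without the block, without the low-count filter, after thinning and without library c (-0.25, adjusted p = 0.286). Cx3cr1 overlapped (0.25 ± 0.23, adjusted p = 0.432). Irf5 (-2.51 ± 0.12), Lgals3 (-2.60 ± 0.079) and Ctss (-1.77 ± 0.083) were lower in members without overlap, as were S100a4 (-1.86 ± 0.12), Anxa2, an annexin (-1.80 ± 0.077), and Flt3 (-2.22 ± 0.20). Spi1 was lower within each library (-0.73 ± 0.14), with overlap across libraries.

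Higher in members than in dendritic-type cells were genes shared with granulocytes. Ly6c2 was at 88.3, 432 and 366 CPM in dendritic-type cells, 8.87-fold below members (3.32 ± 0.13, adjusted p = 3.12e-27). All 9 primary granule genes were higher (median 3.12), with Mpo at 370, 408 and 697 CPM in dendritic-type cells (3.38 ± 0.095). Cebpa (1.91 ± 0.48), Cebpb (2.18 ± 0.68) and Csf3r (2.36 ± 0.43) were higher, although Cebpa and Cebpb rested on 7 and 3 UMIs in the dendritic-type sums and Cebpb was lost with DESeq2 (adjusted p = 0.135) and without library b (adjusted p = 0.110). Zeb2 was higher by 1.95 ± 0.15, Cybb by 2.34 ± 0.25 and the chemokine Ccl9 by 2.23 ± 0.13. Lpl, which encodes lipoprotein lipase, had 0 UMIs in dendritic-type cells and 6.35, 5.74 and 7.15 CPM in members. Trem2 had 3 UMIs in dendritic-type cells, all in library c. Of 22 S phase genes 16 were higher and none lower, while 20 of the 22 mitosis genes were lower and none higher, with Ube2c at 157, 142 and 164 CPM in members against 761, 389 and 443 CPM (-1.62 ± 0.096). The lower mitosis calls were 12 with DESeq2, 14 of 21 after thinning and 15 with rule and values from different UMIs.

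**Figure D3:**
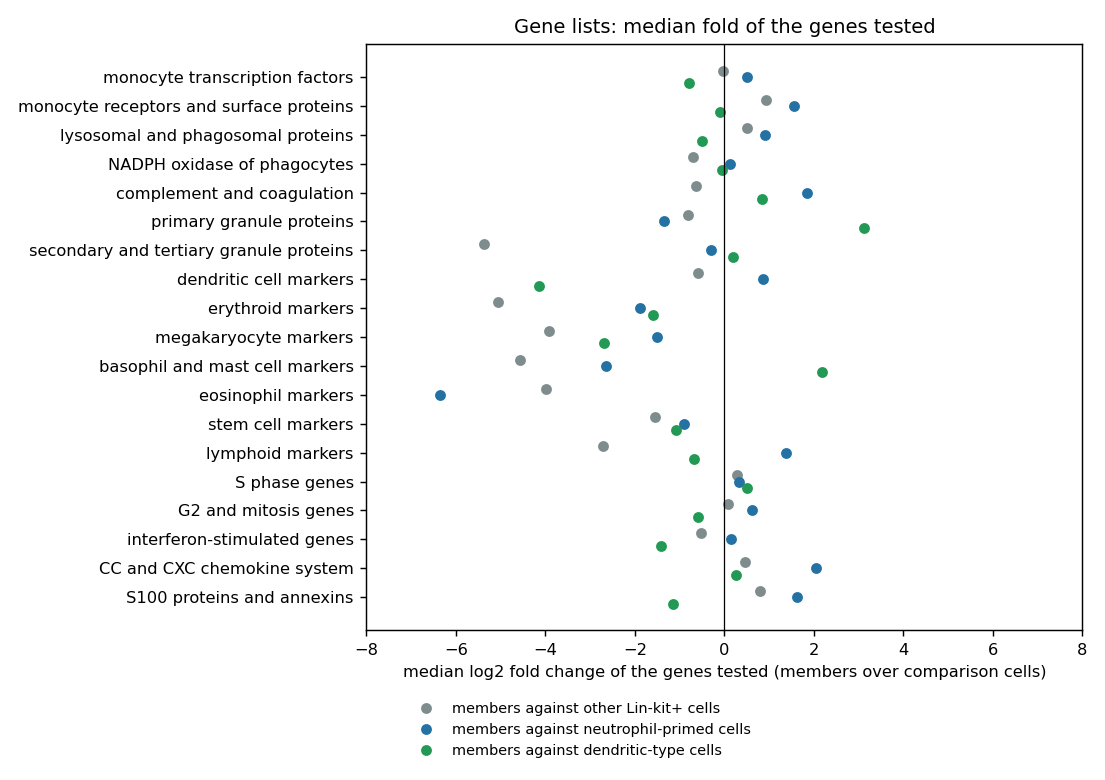
Median log2 fold change of members over the comparison cells (x axis) for the tested genes of 19 lists (y axis), with colours for the 3 comparisons. Primary granule genes lie at -0.82, -1.35 and 3.12 against other, neutrophil-primed and dendritic-type cells, and mitosis genes at 0.08, 0.62 and -0.59.

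Members varied widely in their granule genes. The share of a cell's UMIs in Mpo, Elane, Prtn3 and Ctsg had a median of 1.70%, 1.71% and 1.84% in libraries a, b and c and ranged from 0% to 5.45%, 6.43% and 5.82%. Members were split at the median of their own library into 1711 granule-high and 1712 granule-low cells. The score is a range and not a type, with 12.6%, 14.4% and 13.5% of members within 10% of the median. Depth differed modestly, at medians of 8917.5, 5972.5 and 7287 UMIs in granule-high and 7954.5, 5438 and 6425 in granule-low members. Of 8912 genes tested outside the score and the rule, 2165 (24.3%) passed. In granule-high members 1038 (11.6%) were higher and 1127 (12.6%) lower, of which 73 (0.819%) and 163 (1.83%) differed at least 2-fold. DESeq2 called 584 genes, of which 59.9% were higher in place of 47.9%.

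Granule-high members had more of genes tied to neutrophils. Cebpe was at 32.5, 27.3 and 36.3 CPM against 7.73, 6.69 and 8.75 CPM in granule-low members (2.08 ± 0.14, adjusted p = 2.32e-15). Nkg7, a granule protein of cytotoxic and myeloid cells, was at 452, 491 and 493 CPM against 96.9, 93.6 and 127 CPM (2.16 ± 0.049, adjusted p = 2.07e-31). The 5 primary granule genes outside the score were all higher, among them Ms4a3 (1.78 ± 0.030). Mpo, Elane, Prtn3 and Ctsg, of the same list, set the split from the same UMIs. Higher levels of genes that go with them therefore follow in part from the split and are a description. None of these named genes overlapped between the classes. Ly6c2 was higher too, at 3524, 3823 and 3715 CPM against 2332, 2262 and 2197 CPM (0.75 ± 0.020), as was Fcgr3 (1.48 ± 0.049). Serpine2, a serine protease inhibitor, rose most among the genes named by size (2.87 ± 0.26).

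Flt3 and Dntt were higher in granule-low members. Flt3, the receptor that marks lymphoid and dendritic potential, was at 25.2, 29.0 and 22.5 CPM in granule-low members and at 2.78, 2.298 and 2.297 CPM in granule-high members (-3.33 ± 0.20, adjusted p = 1.00e-16). Dntt, the terminal transferase of lymphoid progenitors, was at 28.9, 33.1 and 36.9 CPM against 0, 1.72 and 0.431 CPM (-5.50 ± 0.26, adjusted p = 2.74e-20). The Dntt of members was concentrated in cluster 2, given last, at 110 CPM with detection in 13.7% of its cells. The other members had 1.75 CPM. S100a4 (-1.79 ± 0.10), Cx3cr1 (-1.14 ± 0.11), Tcf4 (-1.23 ± 0.11) and Cd34 (-0.51 ± 0.050) were also lower in granule-high members, and all 5 dendritic markers tested were lower. Of 6 stem cell genes 4 were lower in granule-high members, Kit was higher and Mllt3 did not pass, while DESeq2 called 1 lower of 12. Of 4 lymphoid genes Flt3 and Dntt were lower, Nkg7 was higher and Cd79b did not pass. Klf4 (-0.19 ± 0.099, adjusted p = 0.165) did not pass, nor did Spi1, whose values overlapped. Ly86 was lower in granule-high members (-0.22 ± 0.060, adjusted p = 0.00593), a call lost with DESeq2, without the block and without library b. Of the 22 mitosis genes 20 were lower in granule-high members and none higher, with Mki67 at 89.5, 77.8 and 81.5 CPM against 141, 128 and 141 CPM (-0.71 ± 0.058, adjusted p = 5.72e-13). DESeq2 called 11 of the 22 lower. Of 22 S phase genes 2 were higher and 4 lower.

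Prss34 and Mcpt8, proteases of basophils, were lower in granule-high members as well (-4.12 ± 0.12 and -2.44 ± 0.15), but the libraries did not behave alike. In granule-low members Prss34 was at 3.09, 127 and 181 CPM in libraries a, b and c. The 16 granule-low members with 10 or more summed basophil and eosinophil UMIs, 2 of them in library a, held 89.6% of the class's UMIs of these genes. Without such cells Prss34 turned to 0.38 ± 0.23 (adjusted p = 0.255) and Mcpt8 to -0.21 ± 0.16 (adjusted p = 0.373), while the number of genes that passed was 2213 and 2132 of the 2165 passed in the same direction.

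**Figure D4:**
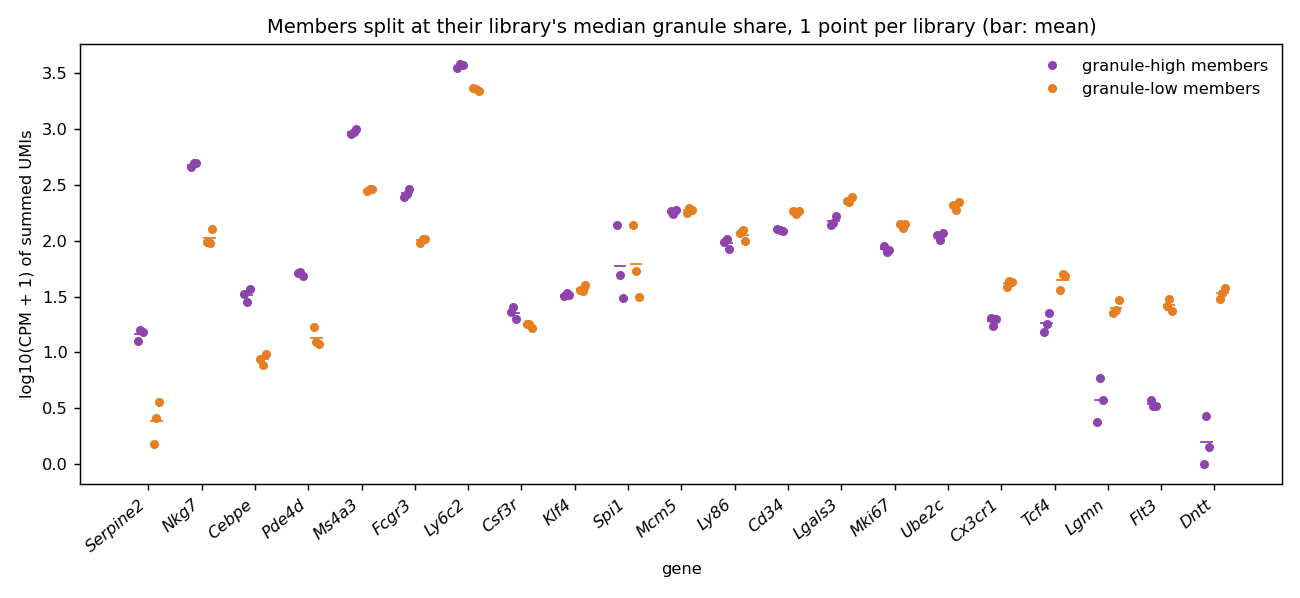
Levels of 21 genes as log10(CPM + 1) of summed UMIs (y axis) in granule-high and granule-low members, 1 point per library with a bar at the mean. Cebpe and Nkg7 lie higher in granule-high members in all 3 libraries, Flt3 and Dntt lie lower, and the spread of Spi1 between libraries exceeds its difference between classes.

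Clustering of the members alone, with each gene centred within its library, gave 6 clusters that are described here by their leading genes, with no test. Cluster 0 (845 members, 24.7%) was led by Chil3, Trem2, Lgals3, Lyz2 and Tgfbi, with 4365 CPM of Ly6c2 and 46.0 CPM of Klf4. Cluster 1 (821 members) was led by Rgcc, Nkg7, Pde4d, Cd63 and Fkbp11 and had the top Elane level of the 6, at 10640 CPM, with 12.7 CPM of Klf4. Cluster 3 (494 members) was led by Pf4 and the mitotic genes Ube2c, Nusap1 and Plk1 and had 76.0 CPM of Klf4. Pf4 was detected in 1.82% of its cells, at 1.53, 0.907 and 70.4 CPM in libraries a, b and c, and so mostly in library c. Cluster 5 (350 members) was led by Snhg9, Itpripl1, Rad51ap1 and Ccne2, the highest at 1.81-fold over the other members.

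Clusters 1, 2 and 4, with 24.0%, 15.2% and 11.5% of members, departed from the monocyte label. The shares and comparisons above took all members together and so include these cells. Besides its top Elane level, cluster 1 had the highest Cebpe of the 6, at 43.7 CPM, and the lowest Ly86, Irf8 and Ccr2, at 67.5, 553 and 61.3 CPM. Cluster 2 (519 members, 15.2%) was led by Prss34, Mcpt8, Dntt and Cpa3 and had 46.8 CPM of Flt3, 309 CPM of Cd34, 717 CPM of Ly6c2 and 4.26 CPM of Klf4. Its Prss34 was detected in 5.78% of its cells, at 4.95, 444 and 599 CPM in libraries a, b and c, and its Mcpt8 was at 31.4, 384 and 495 CPM, so that both were far lower in library a. In cluster 2 Dntt was detected in 13.7% of cells. Cluster 4 (394 members, 11.5%) was led by Id2, Rnase6, Upb1, Lgmn and Runx2, with 32.2 CPM of Cd7, 33.0 CPM of Ly6d, 1238 CPM of Irf8 and 869 CPM of Elane. Id2, Cd7 and Ly6d were detected in 13.7%, 10.4% and 4.06% of its cells. Ly86 ranged from 67.5 CPM in cluster 1 to 130 CPM in cluster 4. Each cluster was present in each library, with shares that ranged from 8.59% to 25.4%, and the SD of a cluster's share over libraries was 0.508 to 1.53 percentage points. Without centring, one cluster held 35.3% of the members of library c and under 1% of those of libraries a and b, and another held 32.3% of the members of library a and 1.65% or less of the others.

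**Figure D5:**
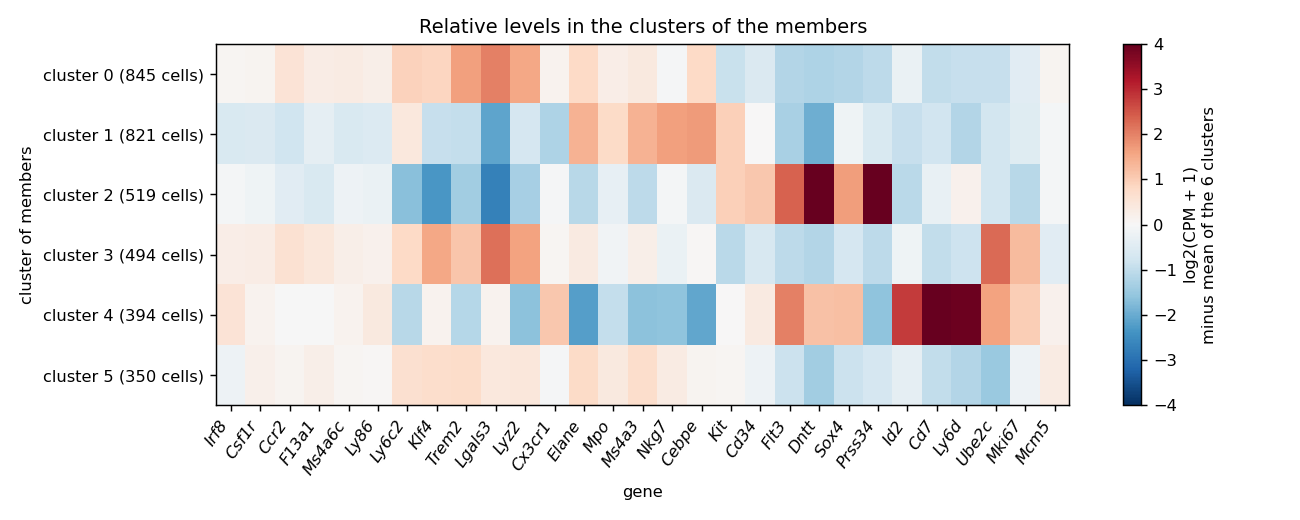
Levels of 29 genes in the 6 clusters of members (y axis), as log2(CPM + 1) minus the mean of the 6 clusters (colour). Cluster 2 stands out for Dntt and Prss34, the latter at 4.95 CPM in library a and 444 and 599 CPM in libraries b and c, cluster 4 for Id2, Cd7 and Ly6d, and clusters 0 and 3 for Lgals3 and Lyz2. Dntt and Prss34 were detected in 13.7% and 5.78% of the cells of cluster 2. Id2, Cd7 and Ly6d were detected in 13.7%, 10.4% and 4.06% of the cells of cluster 4.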

How the data were processed

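Single cells were captured with Chromium Single Cell 3' V2 chemistry. The deposited values are raw counts, the number of UMIs the authors obtained from Cell Ranger for each of 15287 genes in each cell, with no scaling. The submitters' processing notes list Cell Ranger 1.3 and 2.1, Seurat 2.3.4 and the build mm10, and the annotation is not given in the sources used here. The 3' counts are not per length, so levels are compared between classes of cells and not between genes.

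Counts were summed per library and class and tested with the quasi-likelihood test of edgeR, adjusted after Benjamini and Hochberg (edgeR 4.0.16, R 4.3.3, TMM, filterByExpr, library as block), at an adjusted p of 0.05 over all genes tested. The block pairs the 2 sums that come from 1 library. Alternatives were DESeq2 1.42.0, library totals as scaling, no low-count filter, no block, each library left out, filters on cells and doublets, other limits of the rule, thinning of each cell with at least 2000 UMIs to 2000 UMIs, and a random split of each cell's UMIs into one part for the rule and one for the values. Differences are log2 ± SE, and a fold against a class at 0 was computed against 3 UMIs over that class. Sums of cells, not cells, were the replicates. Gene lists held 19 groups. The text names marker genes, list genes, and, in each direction, the 10 called genes of largest fitted fold with at least 100 UMIs and the same sign in 3 of 3 libraries. Members and lists were chosen with earlier results of these data known. Clusters used scanpy 1.11.5 and leidenalg 0.10.2 (2000 genes, 20 components, 15 neighbours, resolution 0.5). The test was also run on simulated counts, with few genes changed and classes not chosen from the counts. That check does not cover the setting of these data, and its outcome is not given here. Depth per library and cell is given in the results, and sparse genes such as Klf4 are missed in most single cells, so levels rest on the sums.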

Additional observations from a re-analysis of the deposited data

Results flagged for a closer look

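In the Fgd5+ library 4 of 793 cells met the rule for monocyte progenitors (Wilson interval 0.196% to 1.29%), in data that no comparison used. They held 1433 to 11662 UMIs each and 5 UMIs of Ly86 in all. Scrublet was run on this library too, but its calls for these cells are not given here. Free RNA and sorting impurity were not tested for them, and no background rate was estimated. Groups of 3 libraries were too small for a search for outlying samples.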

How the results depend on the processing

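Both sums of a comparison came from the same library, so the library block, here the replicate block, was part of the test. Against other Lin-kit+ cells 3708 genes passed without the replicate block, 3449 with DESeq2 and 2574 after thinning to 2000 UMIs, in place of 5882. Against neutrophil-primed cells the counts were 1848, 1501 and 1702 in place of 3000. Against dendritic-type cells DESeq2 gave 1920, thinning 1776 and rule and values from different UMIs 2075, in place of 3116, and 2564 passed without the block. For the granule split the counts were 622 without the block and 584 with DESeq2, and they ranged from 1232 to 2042 when 1 library was left out, with the lowest without library c. The mean share of members was 26.3% with a summed count of at least 4, 26.4% with 0 dendritic genes, 33.8% without the dendritic limit and 18.3% after thinning. Fewer UMIs or cells enter the thinned and split sums. Thinning left out cells under 2000 UMIs, among them 30 of 3423 members and 74 of 496 dendritic-type cells. The cause of the other changes was not tested. The sign turned for Cebpa after thinning (-0.06) and for Prss34 without basophil-type cells (0.38). Of the other values of single genes, 67 lost their call under an alternative and 2233 were counted as unchanged. The unchanged values include genes called neither in the main test nor in the alternative, whatever their sign. Genes that an alternative did not test, or for which it gave no adjusted p, were not counted. Alternatives with basophil-type cells or primary granule UMIs left out, and clusters without centring, were chosen after seeing the data. Sparse genes are limited by depth.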

Other observations

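Within members, cells with a Klf4 UMI (624) were set beside cells without one (2799), as a description with no test. Lgals3 was at 354, 376 and 398 CPM with Klf4 and at 125, 143 and 153 CPM without it in libraries a, b and c. Ly6c2 was at 3950, 4130 and 3866 CPM against 2653, 2880 and 2778 CPM, with no overlap, while Elane overlapped at 6007, 6328 and 6252 CPM against 6205, 5919 and 6388 CPM. Median depth was 7102 and 6362 UMIs, and a deeper cell has a larger chance of a Klf4 UMI.

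Members with a Flt3 UMI (253) had 2065, 1076 and 2232 CPM of Elane and 1015, 834 and 1252 CPM of Ly6c2. Members without one (3170) had 6711, 6337 and 6669 CPM of Elane and 3222, 3244 and 3133 CPM of Ly6c2, so that these genes were apart in every library. Ly86 was alike in range, at 111, 124 and 85.2 CPM with Flt3 and 105, 112 and 91.0 CPM without. The medians of 6200 and 6484 UMIs per cell were close.

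Members with a Cx3cr1 UMI (570) had 118, 160 and 102 CPM of Ly86 against 102, 105 and 88.0 CPM in the 2853 without, higher within each library and overlapping across them.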
